A study of Mus musculus with 10 samples.

Results

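The genes described are 9 immediate early genes of neurons (Fos, Fosb, Junb, Egr1, Egr2, Egr4, Arc, Npas4 and Nr4a1) and Bdnf, taken by symbol as 10 of the 21956 genes in a table of hippocampal RNA. They were measured in 10 RNA-seq libraries from hMAPT mice, which carry the human tau gene (tau is a protein that binds the microtubules of axons). All mice were 6 months old. In 5 libraries the mice had received AAV-circTau6, an adeno-associated virus delivering circTau6, a circular RNA made from tau gene sequence, 80 days earlier, and 5 libraries came from control-injected hMAPT mice. Both groups carry the same human tau background, so neither is a wild-type hippocampus. What the control virus or solution held, and the viral serotype, promoter and dose, do not appear in the labels. No label says in so many words that each library is a separate animal, so p-values measure the spread between these samples, which may in part be technical. The labels imply a single comparison, circTau6 against control, which is read here for these 10 genes.

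Immediate early genes are transcribed within minutes of synaptic activity from factors already present in the neuron, with no need for new protein synthesis. Calcium entering through NMDA receptors and voltage-gated channels activates CaM kinases and the MAP kinase cascade, which act on CREB, SRF and MEF2 at the promoters. Most of the early products are transcription factors that switch on a later set of genes, while Arc and Bdnf act at the synapse itself. In the hippocampus these transcripts are widely used as a record of recent neuronal firing.

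Total counts per library lay between 14762952 and 17647138. All 10 genes were above the filter on low counts, and the lowest count of any of them in any library was 16, for Egr2. All 8 pan-neuronal markers tested were present in every library, with a summed level of 6361 to 6903 CPM (counts after scaling for library size) in control and 5899 to 6771 CPM in circTau6 libraries. Choroid plexus transcripts set 2 libraries apart: the 6 markers summed to 73.1 CPM in control replicate 2 against 2946 to 4542 CPM in the other controls, and to 63.9 CPM in circTau6 replicate 5 against 1889 to 5507 CPM in the other circTau6 libraries. Because circTau6 replicate 5 also stood at the top for most of the 10 genes, its effect is given beside the results that rest on it. In whole tissue, fewer cells of a type and less RNA per cell cannot be told apart.

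The promoters of 4 of the genes, all 4 encoding transcription factors, are printed as examples. Each window holds the same short element, as do the windows of Fosb and Egr4, which are not printed. Any link between this element and variation together was not tested. Each sequence is the 250 bases upstream of the RefSeq transcription start in GRCm38.p6, read 5′ to 3′ on the gene's own strand. Capitals mark TGACG or its reverse complement CGTCA, the core of the cyclic AMP response element (CRE) that the CREB family binds. The Fos window lies at chr12:85473640-85473889 on the plus strand, the Junb window at chr8:84978749-84978998 on the minus strand, the Nr4a1 window at chr15:101266596-101266845 on the plus strand and the Npas4 window at chr19:4989972-4990221 on the minus strand.
Fos: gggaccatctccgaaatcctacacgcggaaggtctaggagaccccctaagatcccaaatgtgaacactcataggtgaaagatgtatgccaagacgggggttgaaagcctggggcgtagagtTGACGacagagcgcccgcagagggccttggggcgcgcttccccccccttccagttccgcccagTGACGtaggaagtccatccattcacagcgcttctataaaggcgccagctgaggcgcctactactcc
Junb: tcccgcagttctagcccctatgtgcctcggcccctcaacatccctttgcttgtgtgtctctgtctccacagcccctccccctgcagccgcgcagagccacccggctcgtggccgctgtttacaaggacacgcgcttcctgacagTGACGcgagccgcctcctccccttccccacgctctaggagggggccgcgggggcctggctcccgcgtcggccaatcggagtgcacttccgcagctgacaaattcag
Nr4a1: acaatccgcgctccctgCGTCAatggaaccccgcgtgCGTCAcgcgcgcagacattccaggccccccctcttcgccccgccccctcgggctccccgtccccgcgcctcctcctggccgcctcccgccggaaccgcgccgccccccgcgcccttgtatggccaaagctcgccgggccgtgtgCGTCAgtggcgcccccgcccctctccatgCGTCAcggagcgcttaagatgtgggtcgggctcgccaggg
Npas4: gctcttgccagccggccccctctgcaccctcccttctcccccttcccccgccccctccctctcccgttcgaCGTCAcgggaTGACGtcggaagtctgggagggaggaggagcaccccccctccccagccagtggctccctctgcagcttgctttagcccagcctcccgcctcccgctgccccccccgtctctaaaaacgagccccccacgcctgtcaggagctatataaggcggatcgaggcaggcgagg

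Counted back from the start site, the Fos window held the element with its first base at −129 and −66, and a TATAAA box at −33. Nr4a1 had 4 copies, Npas4 had 2 lying close together at −179 and −169, and Junb had 1 at −106. RefSeq windows were matched for 8 of the 10 genes, with 7 alternative starts for Bdnf, 5 for Egr2 and 1 for each of the others. Arc was not matched and Egr1 was not analysed here. TGACG on either strand was present in all 6 genes with a single window, against 17.5% of all 22862 genes with a single window. It was in at least 1 window of each of the 8 genes, a count with no share over all genes beside it. The single windows were 58.4% (Fos) to 74.4% (Nr4a1) G or C, and the shares over all genes were not matched for this. Over all windows of the 8 genes it was in 10 of 18, against 17.8% of all 32851 upstream windows of genes in the promoter set used. Only 1 of the 7 Bdnf windows held it. The whole palindrome TGACGTCA was in 0 of 18 windows, against 1.55% of those 32851. The serum response element, or CArG box, was found in 4 windows, all of Egr2, against 1.47%. Bases more than 250 upstream of a start were not searched, so a gene without a match here may still have the element farther away. These matches describe letters in a window, overlapping Egr2 windows share the same sites, and no binding was measured.

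Per unit of transcript length the 10 genes covered a wide range of levels. TPM is the unit that scales abundance to transcript length and library total, so it allows genes to be set side by side. Over 10 libraries, Arc had the highest mean level at 62.0 TPM ± 17.7 (SD, n = 10) and Egr1 followed at 58.7 TPM ± 17.5 (SD, n = 10). Junb stood at 48.7 TPM ± 11.2 and Nr4a1 at 48.2 TPM ± 10.7 (SD, n = 10). Bdnf was at 24.9 TPM ± 3.50, Egr4 at 12.6 TPM ± 2.47 and Fos at 11.4 TPM ± 5.42 (SD, n = 10). The lowest levels were those of Npas4 at 6.85 TPM ± 1.93, Fosb at 4.47 TPM ± 1.34 and Egr2 at 1.74 TPM ± 0.616 (SD, n = 10).

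Neighbours in that order mostly overlapped. Bdnf and Egr4 were the only neighbours with separate ranges, the lowest Bdnf value being 18.1 TPM and the highest Egr4 value 17.4 TPM. Nr4a1 was above Bdnf, Npas4 above Fosb, and Fosb above Egr2 in 10 of 10 libraries although their ranges overlapped. Arc was above Egr1 in 7 libraries, Junb above Nr4a1 in 6 and Egr4 above Fos in 6, so the order within those pairs is not fixed by these libraries.

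None of the 10 genes differed between the groups by edgeR's quasi-likelihood test adjusted over all 14396 genes tested. The count was 0 of 10 at an adjusted p under 0.05, where 0.0% of all genes passed, and 0 of 10 at an unadjusted p under 0.05, where 4.42% (637) of all genes fell. DESeq2 and limma voom also called none of the 10, although over all genes they called 14 and 2. Values after circTau6 were higher for 8 genes and lower for 2 (Egr2 and Npas4), beside 7183 of 14396 higher over all genes tested. The median log2 fold change was 0.08 over the 10 and −0.00024 over all genes tested. Without circTau6 replicate 5, Egr1, Egr4, Arc, Nr4a1 and Bdnf were lower too. No gene had groups that failed to overlap. The lowest adjusted p among the 10 was 0.981 (edgeR).

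**Figure D1:**
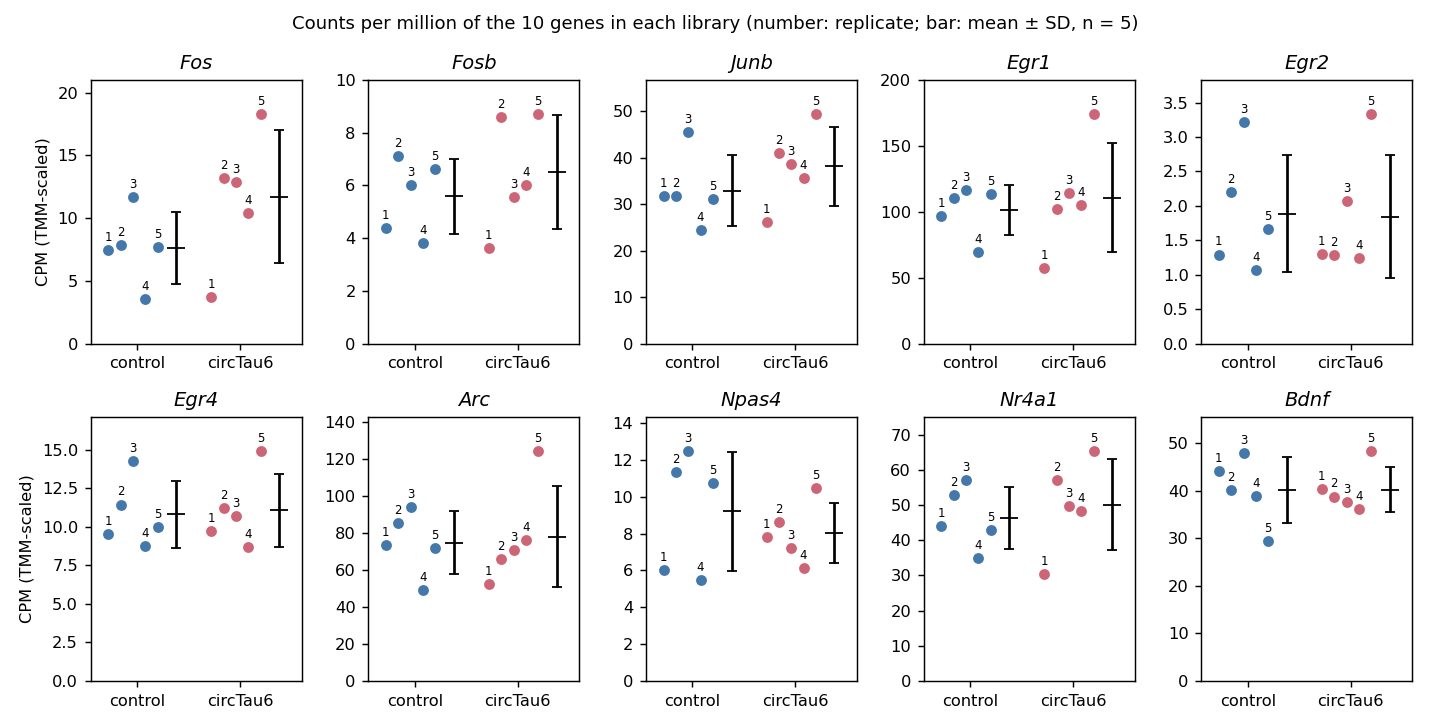
Level in CPM (vertical axes, linear, from 0) of each of the 10 genes in 5 control (blue) and 5 circTau6 (red) libraries, numbered by replicate, with black bars for the mean ± SD (n = 5). The groups overlap for all 10 genes, and circTau6 replicate 5 is the highest library for 9 of them.

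Fos, Fosb and Junb encode subunits of AP-1, the dimeric factor in which a Fos protein pairs with a Jun protein. Fos was at 7.44, 7.83, 11.7, 3.55 and 7.68 CPM in control replicates 1 to 5 and at 3.74, 13.2, 12.9, 10.4 and 18.3 CPM in circTau6 replicates 1 to 5. Thus 3 circTau6 libraries lay above every control, while control replicate 4 and circTau6 replicate 1 were both far below the rest. The group means were 7.63 CPM ± 2.87 and 11.7 CPM ± 5.30 (SD, n = 5). The log2 fold change of 0.61 ± 0.41 (SE) was the largest among the 10 in size, with a 95% interval from −0.33 to 1.55 and an edgeR adjusted p of 0.981. An exact permutation test (two-sided), run over all divisions of the libraries into groups of 5, whose smallest possible p is 0.00794, gave 0.294. Without circTau6 replicate 5 the Fos difference was 0.39 ± 0.41 (SE), and without both choroid-poor libraries it was 0.40 ± 0.47 (SE), both by edgeR. Without circTau6 replicate 1 it was 0.84 ± 0.29 (SE), with an edgeR p of 0.0166 unadjusted and 0.886 adjusted.

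Junb, the partner of the Fos proteins in this set, was at 31.8, 31.8, 45.5, 24.4 and 31.0 CPM in the controls and at 26.1, 40.9, 38.7, 35.6 and 49.4 CPM in the circTau6 libraries. The same libraries were low as for Fos, and control replicate 3 lay above all circTau6 libraries except replicate 5. Its log2 fold change was 0.21 ± 0.19 (SE), with a 95% interval from −0.23 to 0.64 (edgeR adjusted p = 0.981). Junb shares its position on chromosome 8 with Prdx2 on the opposite strand, and the sources do not say whether counting used strand, so some reads of the 2 genes may not be told apart. Fosb, whose truncated product ΔFosB builds up with repeated activity, was at 4.40, 7.12, 6.03, 3.82 and 6.61 CPM in the controls and at 3.63, 8.61, 5.57, 6.01 and 8.71 CPM after circTau6. In Fosb too, circTau6 replicates 2 and 5 were the highest libraries and circTau6 replicate 1 the lowest. The log2 fold change was 0.21 ± 0.24 (SE), with a 95% interval from −0.30 to 0.73.

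The Egr genes encode zinc finger factors that bind GC-rich promoter sites, and Egr1 (also known as Zif268) is linked to the maintenance of synaptic potentiation. Egr1 was at 96.5, 110, 116, 69.8 and 114 CPM in the controls and at 57.6, 102, 114, 105 and 174 CPM in the circTau6 libraries. Both the lowest and the highest Egr1 values were thus in circTau6 libraries, replicates 1 and 5, and the other 3 lay among the controls. Its log2 fold change of 0.12 ± 0.28 (SE; 95% interval −0.51 to 0.76) became −0.10 without circTau6 replicate 5.

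Egr4 was at 9.51, 11.5, 14.3, 8.77 and 10.01 CPM in the controls and at 9.75, 11.2, 10.7, 8.71 and 14.9 CPM after circTau6. The groups were nearly level, with 1 high library in each (control replicate 3 and circTau6 replicate 5), and the log2 fold change was 0.03 ± 0.15 (SE; 95% interval −0.30 to 0.36). Egr2, also known as Krox20, was the scarcest of the 10 at 1.29, 2.20, 3.22, 1.07 and 1.67 CPM in the controls and 1.3, 1.29, 2.07, 1.24 and 3.33 CPM in the circTau6 libraries. The same 2 libraries were high for Egr2, and its log2 fold change was −0.05 ± 0.35 (SE; 95% interval −0.80 to 0.69). Counting error alone gives a coefficient of variation of 25.0% at its lowest count.

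Egr2 was also the gene for which the 2 deposited units disagreed in direction. In TPM the authors' deposited table gives a log2 fold change of 0.29, with a p-value of 0.940. The TPM per CPM of Egr2 was between 0.835 and 0.847 in all 5 controls but was 1.36, 1.12, 0.866, 1.37 and 0.850 in circTau6 replicates 1 to 5. For Egr4, for comparison, this ratio varied by 1.05-fold across the 10 libraries. For Fosb it varied by 1.29-fold and for Npas4 by 1.12-fold. Which transcripts of Egr2 were counted in each library was not tested.

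Npas4 encodes a bHLH-PAS factor that is induced by calcium entry and is known for adjusting inhibitory synapses on active neurons. It was at 6.02, 11.3, 12.5, 5.49 and 10.7 CPM in the controls and at 7.82, 8.61, 7.23, 6.12 and 10.5 CPM in the circTau6 libraries. The controls spread more widely, with 3 of them above every circTau6 library and 2 below every one. The log2 fold change was −0.20 ± 0.23 (SE; 95% interval −0.71 to 0.31), the lowest among the 10. Nr4a1, an orphan nuclear receptor also called Nur77, was at 44.0, 52.8, 57.1, 34.9 and 42.9 CPM in the controls and at 30.3, 57.2, 49.8, 48.3 and 65.2 CPM after circTau6. Its lowest and highest libraries were again circTau6 replicates 1 and 5. The Nr4a1 log2 fold change of 0.11 ± 0.21 (SE; 95% interval −0.36 to 0.58) was −0.0021 without replicate 5.

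Arc encodes a capsid-forming protein of dendrites that promotes the endocytosis of AMPA receptors. It lies on chromosome 15 from 74669083 to 74672570 in GRCm38. Arc was at 73.4, 85.1, 94.2, 49.3 and 71.7 CPM in the controls and at 52.3, 65.9, 70.8, 76.2 and 124 CPM in the circTau6 libraries. Apart from circTau6 replicate 5, all circTau6 libraries were within the control range. The log2 fold change was 0.05 ± 0.26 (SE; 95% interval −0.53 to 0.64) and was −0.18 without that library.

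Bdnf encodes a secreted neurotrophin that acts on the receptor TrkB, the product of Ntrk2, and it has several promoters that differ in their dependence on activity. It lies on chromosome 2 from 109674700 to 109727007 and overlaps Gm45346 on the opposite strand, which carries the same limit as for Junb. Bdnf was at 44.2, 40.2, 47.9, 39.0 and 29.4 CPM in the controls and at 40.4, 38.8, 37.7, 36.1 and 48.3 CPM in the circTau6 libraries. The means were 40.2 CPM ± 6.94 and 40.3 CPM ± 4.75 (SD, n = 5), and the lowest library was control replicate 5, not those that were low for Fos. Its log2 fold change was 0.00 ± 0.12 (SE), and the 95% interval from −0.26 to 0.26 was the narrowest among the 10.

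**Figure D2:**
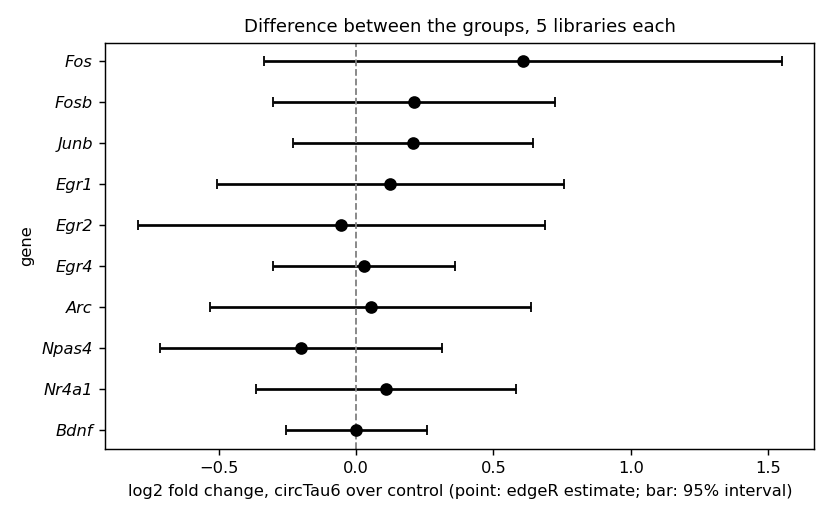
Log2 fold change of circTau6 over control (horizontal axis) for each of the 10 genes (vertical axis), from edgeR with 5 libraries a group. Points are estimates and bars 95% intervals. All 10 intervals include 0, with Fos the farthest from it at 0.61 and Bdnf at 0.00 with the narrowest interval.

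No relative level within the set passed a test between the groups either. The log2 ratio between each of the 45 pairs of genes was compared between groups with an exact two-sided permutation test, a comparison added after the data were seen. Of these 45 ratios, 0 had an unadjusted p under 0.05. The lowest p was 0.0952, for Fos over Egr1, with a Benjamini-Hochberg adjusted value of 0.873. For that ratio 3 circTau6 libraries lay above every control and 0 below every control.

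These genes spread widely between libraries of the same group, which is a description with no test. The SD of log2 CPM within groups was 0.75 for Fos, which put it at percentile 98.0 among 1976 genes within 0.5 log2 CPM of its level, where the median SD was 0.19. Egr1 (SD 0.46), Arc (0.41), Nr4a1 (0.35) and Junb (0.33) stood at percentiles 99.5, 99.2, 98.8 and 97.7 among genes of their own level. Bdnf, with the smallest SD of the 10 at 0.22, was still at percentile 94.6. The less abundant Npas4, Fosb, Egr4 and Egr2 stood at percentiles 92.8, 90.5, 85.5 and 80.0. Over all genes tested the median SD was 0.14. From the lowest to the highest of the 10 libraries, Fos covered a 5.16-fold range, Egr2 3.11-fold, Egr1 3.02-fold and Bdnf 1.64-fold. Without circTau6 replicate 5 these ranges were 3.73-fold for Fos, 3.00-fold for Egr2, 2.02-fold for Egr1 and 1.63-fold for Bdnf. The SD within groups was then 0.72 for Fos, 0.38 for Egr1 and 0.31 for Arc, at percentiles 98.4, 99.3 and 98.6, while Egr2 and Egr4 were at percentiles 70.6 and 77.2.

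The libraries took similar places for most of the genes. CircTau6 replicate 5 was the highest library for 9 of the 10 genes, and control replicate 3 was the highest for Npas4 and among the top 2 for 7 genes. At the other end, control replicate 4 was the lowest for 5 genes and among the lowest 2 for 9, and circTau6 replicate 1 was the lowest for 3 and among the lowest 2 for 6. The mean deviation of the 10 genes from their own means was 0.61 in circTau6 replicate 5, 0.38 in control replicate 3, −0.48 in circTau6 replicate 1 and −0.55 in control replicate 4, on the log2 scale. High and low libraries thus occurred in both groups. No relation to total counts per library passed for any of the 10 genes (Pearson, permutation test over 10 libraries, all 10 adjusted p = 0.986). Without the 2 libraries farthest from the median total, control replicate 5 and circTau6 replicate 5, all 10 r values were positive, from 0.11 for Bdnf to 0.64 for Egr4 and 0.75 for Npas4, so a relation to depth among the other 8 libraries was not settled. CircTau6 replicate 5 is also the choroid-poor library with the fewest total counts. The other choroid-poor library, control replicate 2, deviated by 0.14 and had 8 of the 10 genes above their own median. The part of choroid plexus content in these levels was not tested.

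**Figure D3:**
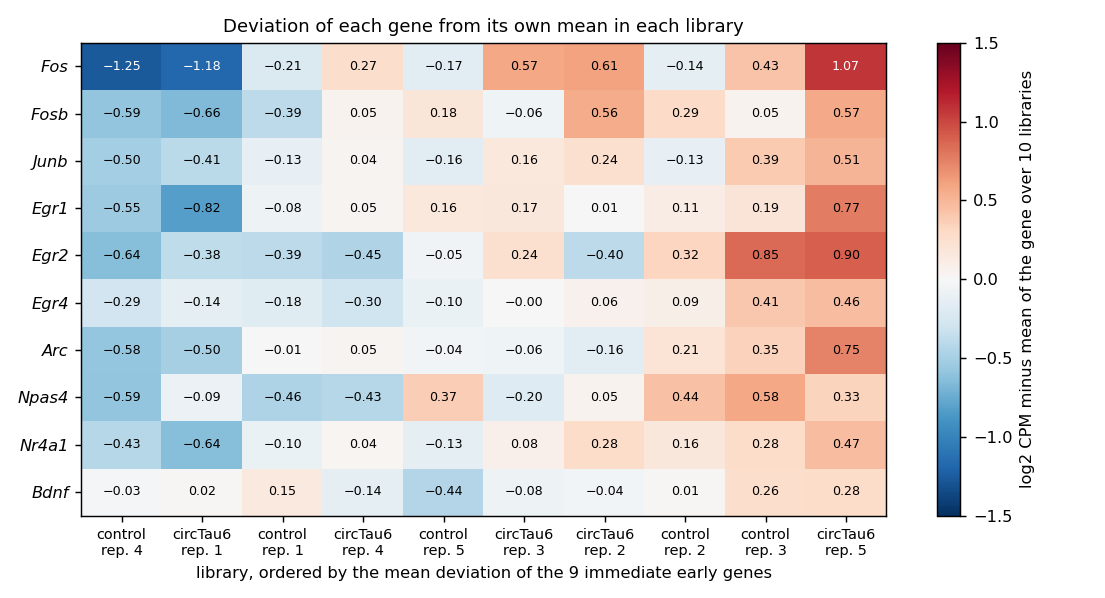
Deviation of each gene (rows) from its own mean log2 CPM in each library (columns, ordered by the mean deviation of the 9 immediate early genes), with blue for below and red for above. Control replicate 4 and circTau6 replicate 1 are below the mean for nearly all genes and circTau6 replicate 5 is above it for all 10, while the Bdnf row is pale.

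Across the 10 libraries all 45 pairs of the genes had a positive Pearson r of log2 CPM, and 26 passed a permutation test of 100000 resamples at a Benjamini-Hochberg adjusted p under 0.05 over the 45 pairs. With the group means subtracted the count was 29. All 26 were among the 36 pairs without Bdnf, where r was between 0.43 and 0.96 with a median of 0.79. By Spearman's rho 5 of the 45 pairs passed, and without circTau6 replicate 5 there were 14 by Pearson's r, with 43 of 45 positive, so the count depends on that library and on the measure.

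The closest pair was Fos and Junb, subunits of the same factor, with r = 0.96, rho = 0.93 and an adjusted permutation p of 0.00135. Without the 2 libraries farthest from the Fos median, control replicate 4 and circTau6 replicate 1, r was 0.93. Fos and Nr4a1 had r = 0.94 and rho = 0.92, and r was 0.83 without the same 2 libraries. Junb and Nr4a1 had r = 0.92 and rho = 0.90, with r = 0.86 after leaving out the 2 farthest. Egr2 and Egr4 had r = 0.92 and rho = 0.87, with 0.73 without the 2 farthest, and Fosb and Nr4a1 had r = 0.89 and rho = 0.84, with 0.72. These 5 pairs are those that passed by both measures. Without circTau6 replicate 5 their r values were 0.94, 0.92, 0.89, 0.88 and 0.85 in the same order and all 5 passed by Pearson's r, but 0 of the 45 pairs passed by rho, with a lowest adjusted permutation p of 0.052. Egr1 and Arc had r = 0.92 and 0.85 without the 2 farthest libraries, but their rho of 0.76 had an adjusted permutation p of 0.0595. Fosb and Arc fell from r = 0.72 to 0.37 without the 2 farthest, so that relation rests on those libraries. Other pairs that passed by Pearson's r fell in a like way. Among them, Egr4 and Arc fell from 0.79 to 0.43, Egr2 and Nr4a1 from 0.69 to 0.46, and Fosb and Junb from 0.77 to 0.49.

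Npas4 and Bdnf had the fewest pairs that passed. Of the 8 pairs of Npas4 with the other immediate early genes, 2 passed by Pearson's r: Npas4 with Egr4 (r = 0.79, rho = 0.81) and with Egr2 (r = 0.78, rho = 0.77), whose values without the 2 farthest libraries were 0.76 and 0.69. Npas4 with Fos had r = 0.43 and rho = 0.43 (adjusted permutation p = 0.249), and r = 0.13 without the 2 farthest. Bdnf had r between 0.03 and 0.61 with the other 9 genes, and 0 of its 9 pairs passed. Whether Npas4 or Bdnf is less correlated than the other genes was not tested as a difference.

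**Figure D4:**
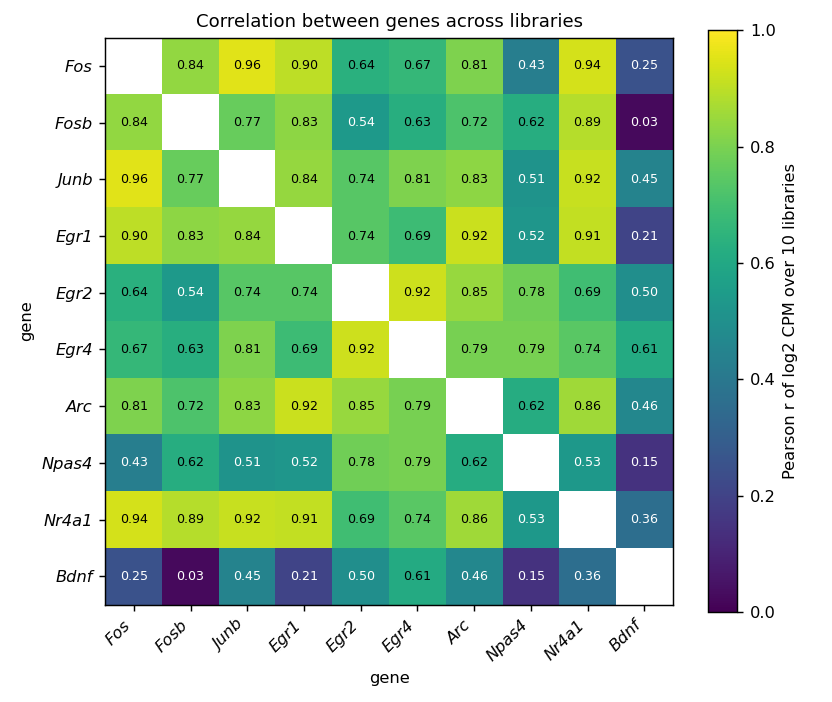
Pearson r of log2 CPM over 10 libraries for each pair of the 10 genes (both axes list the genes), with dark for low and yellow for high. Fos and Junb have the highest value at 0.96, Egr2 with Egr4 and Egr1 with Arc are at 0.92, and the Bdnf row is the darkest, with r at most 0.61.

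Other members of the same pathway were described from gene lists. Of 25 other rapidly induced genes, 0 passed the edgeR test and 3 had higher and 0 lower values at an unadjusted p under 0.05. Over all genes tested, 2.58% (371) had higher and 1.85% (266) lower values at that p. The median log2 fold change of the list was 0.09. The 3 genes were Klf4 (0.51 ± 0.17, SE), a zinc finger factor, Zfp36 (0.76 ± 0.30, SE), which encodes an RNA-destabilising protein, and Ccn1 (0.81 ± 0.35, SE), which encodes a secreted matrix protein. Maff, a small Maf factor, had 0.58 ± 0.29 (SE). Many of these genes are not specific to neurons. Of 6 microglial markers, 0 passed the edgeR test, 5 had higher values at an unadjusted p under 0.05, beside 2.58% of all genes, and P2ry12, named after its values were seen, had −0.03 ± 0.12 (SE). None of the markers was at 0 in any library. Their summed level was 320 to 345 CPM in control and 351 to 383 CPM in circTau6 libraries, and their part in the values of the rapid genes was not tested. Of 20 delayed activity-induced genes, 0 passed and 0 had higher and 3 lower values at an unadjusted p under 0.05, beside the 1.85% of all genes that were lower, with a median of −0.08. These were Ptgs2 (−0.32 ± 0.09, SE; edgeR adjusted p = 0.844), the inducible cyclooxygenase, Gpr3 (−0.56 ± 0.20, SE), a constitutively active receptor that raises cyclic AMP, and Nrn1 (−0.19 ± 0.08, SE), a membrane-anchored protein of neurites. Crem, a CREB-related factor, had −0.18 ± 0.10 (SE).

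Genes around BDNF and upstream of the early genes were nearly level between groups. Of 12 tested genes for BDNF processing and neurotrophin receptors, 0 passed and 0 had an unadjusted p under 0.05, with a median of 0.04. Among those with the lowest p were Plat (0.12 ± 0.08, SE), a protease that activates plasminogen, Sort1 (−0.05 ± 0.04), a sorting receptor for pro-neurotrophins, and Frs2 (−0.06 ± 0.05), an adaptor of Trk receptors. The 16 genes of calcium and kinase signalling and the 16 upstream transcription factors and coactivators gave 0 at an unadjusted p under 0.05 in each list, with medians of −0.01 and 0.00. In the former the lowest p-values were those of Rps6ka1 (0.15 ± 0.09, SE), a kinase that acts on CREB, and Grin2a (−0.10 ± 0.07), an NMDA receptor subunit. In the latter they were those of Mef2a (−0.13 ± 0.07) and Creb1 (−0.11 ± 0.07).

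The mean of the other rapid genes followed Fos from library to library, and the mean of the delayed genes did not show such a relation. Fos, Arc and Bdnf were each set against the mean log2 CPM of 18 lists, 54 relations in all, a comparison added after the data were seen. Of these, 1 passed after Benjamini-Hochberg adjustment: Fos with the other rapid genes, with r = 0.94, rho = 0.94 and an adjusted permutation p of 0.00162 for r and 0.0113 for rho. Without the 2 libraries farthest from the Fos median, r was 0.90, and without circTau6 replicate 5 it was 0.93 (adjusted permutation p = 0.014). With the delayed genes Fos had r = −0.09 and rho = −0.09, and −0.26 without the 2 farthest. With the remaining lists, markers of other cell types included, Fos had r between −0.62 and 0.40, and the lowest adjusted permutation p was 0.705. The value of −0.62 was that for the CA1 and CA3 pyramidal markers (rho = −0.55). It was −0.53 with the group means subtracted and −0.38 without the 2 farthest libraries, and the part of these neurons in the Fos values was not tested. Without the 2 farthest libraries, control replicate 4 and circTau6 replicate 1, the value for the microglial markers changed from 0.40 (rho = 0.60) to 0.79 and that for glucocorticoid-responsive genes from −0.03 (rho = −0.07) to 0.78, so both values depend on those libraries. Over 10 libraries with the group means subtracted, r was 0.14 for the microglial markers and −0.44 for the glucocorticoid-responsive genes. For the pan-neuronal markers r was 0.10 and for the choroid plexus markers −0.32. Within the rapid list 7 of 25 genes had r over 0.8 with Fos and the median r was 0.50, while in the delayed list these were 0 of 20 and −0.00, and over all genes 60 of 14395 and −0.02. Not all rapid genes followed Fos: r was positive for 20 of 25 and ran from −0.41 to 0.97. It was positive for 10 of 20 delayed genes and for 6912 of all genes. The difference between the rapid and delayed lists was not tested.

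**Figure D5:**
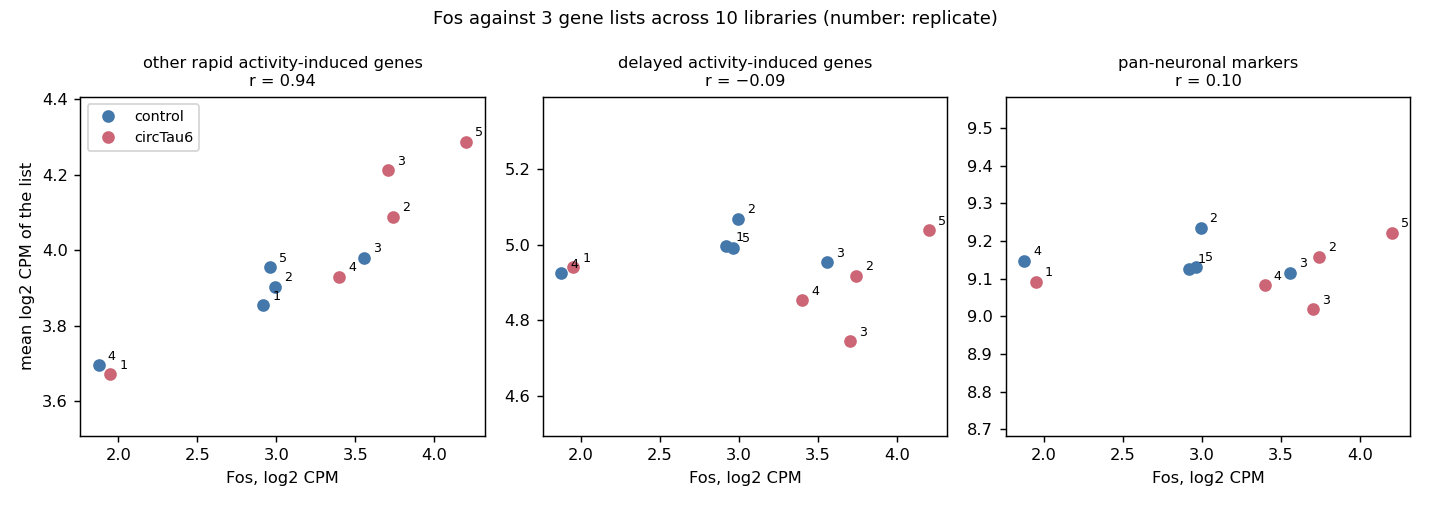
Log2 CPM of Fos (horizontal axes) against the mean log2 CPM of 25 other rapid genes, 20 delayed genes and 8 pan-neuronal markers (vertical axes). The vertical axes span the same width, each centred on the mean of its own list. There is 1 point per library (blue control, red circTau6), with its replicate number. The mean of the rapid genes lines up with Fos over both groups (r = 0.94), and the means of the delayed genes (r = −0.09) and neuronal markers (r = 0.10) do not.

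Arc and Bdnf gave no relation that passed. Arc with the other rapid genes had r = 0.72 and rho = 0.48 (adjusted permutation p = 0.443), and 0.36 without the 2 farthest libraries. With the choroid plexus markers Arc had r = −0.60 and rho = −0.16 (adjusted permutation p = 0.705), and −0.27 without the 2 farthest. Bdnf had its highest value with the dentate granule cell markers, r = 0.72 and rho = 0.78 (adjusted permutation p = 0.443), and 0.80 without the 2 farthest. The summed level of those 6 markers was 422 to 558 CPM in control and 410 to 511 CPM in circTau6 libraries. Their part in the Bdnf values was not tested.

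A search over 12851 genes for the patterns most like Fos, Arc and Bdnf, with group means subtracted and over 10 libraries, gave different kinds of genes, reported as a description. For Fos these were Dusp1 (r = 0.96), a phosphatase of MAP kinases, Btg2 (0.96), an antiproliferative cofactor, Sik1 (0.95), a kinase that restrains CREB coactivators, Ccn1 (0.93) and Bcan (0.92), a perineuronal proteoglycan. The first 4 were on the list of rapid genes. Dusp1 covered 8.77 to 30.5 CPM, whereas Bcan covered only 128 to 152 CPM. For Arc they were Kcnk10 (0.94), a potassium channel, Mlip (0.93), Abcd4 (0.92), Rtn4r (0.90), the Nogo receptor, and Ebf1 (0.89). For Bdnf they were Omg (0.98), the oligodendrocyte myelin glycoprotein, Actr3b (0.94), Skida1 (0.92), Or52k2 (0.91) and Zdhhc23 (0.91). None of the genes nearest to Arc or Bdnf was on a list described here. No p is given for these values, since each is the highest of a search over 12851 genes.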

How the data were processed

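The authors deposited 1 table with an unnormalised count and a TPM per gene and library, per the file headers, beside a log2 fold change, p-value and FDR from a test that no source describes. StringTie 1.3.1 and RSEM are named, without their roles, in the submitters' processing notes. RNA with integrity numbers above 8.0 was depleted of ribosomal RNA and read as strand-specific 150 bp pairs, per the labels' protocols. The aligner and the genome build were not given in the sources used here. In 108 entries the deposited count is 0 beside a TPM above 0. In the library with the lowest total, 3 counts correspond to 0.203 CPM, a limit of counting error alone.

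Counts were filtered (filterByExpr), scaled with TMM and compared with edgeR 4.0.16 (robust quasi-likelihood F test, R 4.3.3), with Benjamini-Hochberg adjustment over 14396 genes. Log2 CPM used a prior count of 2. Alternatives used DESeq2 1.42.0 and limma 3.58.1. Every library pair within a group differed by more than sampling noise. The fits were tested on simulated data. The genes named are the 10, up to 4 genes per described list by lowest p (the microglial markers are given as a list), and the 5 genes most like Fos, Arc and Bdnf; some that this rule names are not reported here. The 10 genes, the lists and the libraries left out were chosen with earlier results of these data known. The promoter search, the relations to lists and the ratios of pairs were added after the data were seen. Coordinates are those of GENCODE M21 on GRCm38, matched by gene ID, and promoter sequences those of RefSeq on GRCm38.p6.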

Additional observations from a re-analysis of the deposited data

Results flagged for a closer look

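Of 56 groups of 5 values examined, 4 held a library far from the rest, where chance gives about 1 in 20. None of the 20 groups of values of the 10 genes was among them. The choroid plexus markers had a mean log2 CPM of 1.90 in control replicate 2, against 6.43 to 7.13 in the other controls. In circTau6 replicate 5 the same mean was 2.05, against 5.79 to 7.21 in the other circTau6 libraries. Control replicate 2 also stood apart for the genes of BDNF processing and neurotrophin receptors, at 5.26 against 5.38 to 5.41, and for the pan-neuronal markers, at 9.24 against 9.12 to 9.15. In that library Bdnf itself was at 40.2 CPM, within the range of the other controls.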

How the results depend on the processing

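Of 200 alternative values of the 10 log2 fold changes (20 settings per gene), 173 kept their direction, 27 turned sign and 0 passed the threshold, with a lowest adjusted p of 0.819. The genes that turned sign were Egr1, Egr2, Egr4, Arc, Nr4a1 and Bdnf. Without both choroid-poor libraries the values were −0.066 for Egr1, −0.081 for Egr4, −0.13 for Arc and −0.073 for Bdnf. Egr2 was 0.21 on log2(TPM + 1), with an exact permutation p of 0.317, and 0.33 on log2(TPM + 0.1). Egr4 was −0.024 and Bdnf −0.013 by voom, and Bdnf was −0.00054 by DESeq2, −0.00054 with RLE scaling and −0.00072 with no filter. Leaving out each library in turn gave 0.39 to 0.84 for Fos, 0.09 to 0.36 for Fosb, 0.10 to 0.36 for Junb, −0.10 to 0.29 for Egr1, −0.37 to 0.23 for Egr2, −0.10 to 0.15 for Egr4, −0.18 to 0.17 for Arc, −0.33 to −0.06 for Npas4, −0.0021 to 0.25 for Nr4a1 and −0.091 to 0.076 for Bdnf. Leaving out circTau6 replicate 5 turned Egr1, Egr4, Arc, Nr4a1 and Bdnf.

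Over all genes, 0 were called higher by edgeR, against 14 by DESeq2, 2 by voom, 2 with no filter, 2 at an adjusted p under 0.10, 3 without both choroid-poor libraries and 0 to 4 with each library left out. Genes at an unadjusted p under 0.05 were 452 to 969 with each library left out. DESeq2 called 1 microglial marker. The count of correlated pairs was 5 by Spearman's rho and 14 to 27 with each library left out, lowest without circTau6 replicate 5. It was 12 without both choroid-poor libraries, where Fos and the other rapid genes still had r = 0.93, alternatives chosen after seeing the data. In these cases the cause was not tested. With the replicate number as a block, edgeR called 4 genes higher and gave 0.56 for Fos. Deviations of same-numbered libraries had correlations of −0.0764 to 0.136, and 0 of 5 controls correlated best with its own number. The choroid-poor libraries, control replicate 2 and circTau6 replicate 5, had 0.576. No label says what the number marks, and these correlations did not settle whether same-numbered libraries share a litter, batch or day. The block changed no other call.

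Precision is limited by 5 libraries a group, and for Egr2 also by counts.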
